A study of Mus musculus with 15 samples.

Results

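Hepatokines are proteins that the liver secretes into blood and that act on other organs or on the liver itself. Enho encodes adropin, a small secreted peptide of energy homeostasis, and it was described here together with 7 other hepatokine genes, Fgf21, Angptl4, Angptl8, Fetub, Ahsg, Gdf15 and Lect2. The 8 genes were matched by symbol among 55849 gene rows, 1 row each, and all 8 had a mean of 1 TPM or more (a relative share of transcripts corrected for gene length). Enho was chosen by its measured TPM in these libraries, lower in old than in young livers and intermediate after treatment, so its levels are given as a description with no test. The other 7 were listed as hepatokines. Their Ensembl identifiers in the table are ENSMUSG00000028445 (Enho), ENSMUSG00000030827 (Fgf21), ENSMUSG00000002289 (Angptl4), ENSMUSG00000047822 (Angptl8), ENSMUSG00000022871 (Fetub), ENSMUSG00000022868 (Ahsg), ENSMUSG00000038508 (Gdf15) and ENSMUSG00000021539 (Lect2).

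RNA was sequenced from mouse liver in 15 libraries, 5 from each of a young control group, an aged control group and a group that received KSL0608-Se, a compound known by its code name, together with irradiation. These groups are called young, aged and treated. The series is titled as a study of light-activated killing of senescent cells, and the labels state no ages, sex, strain, dose or light setting, nor the age of the treated mice. They also do not say whether each library came from its own animal, and some of the spread on which p-values rest may therefore be technical.

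The libraries looked like liver. The 19 hepatocyte markers in the table summed to between 121030 and 197544 TPM in the 15 libraries. Young 4 had the lowest mean Pearson's r with the other libraries of its group, 0.922 across genes, against 0.936 to 0.958 in the other 14 libraries, and several results below move when it is left out. Sequencing depth is unknown for TPM.

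As background, hepatokine genes respond to feeding, fasting, stress and circadian time. Fasting raises Fgf21 and Angptl4 through the fatty acid receptor PPARa, and feeding and insulin raise Angptl8. Cell stress raises Fgf21 and Gdf15 through the integrated stress response, in which the transcription factors ATF4 and CHOP act. Fetuin-A (Ahsg) and fetuin-B (Fetub) are plasma glycoproteins that hepatocytes make steadily.

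Mean Enho was 28.6 ± 11.5 TPM in the young group, 10.3 ± 3.26 in the aged and 20.3 ± 8.05 in the treated group (SD, n = 5 each). The young libraries 1 to 5 stood at 25.4, 25.4, 30.4, 15.1 and 46.6 TPM. The aged libraries 1 to 5 stood at 14.2, 8.94, 9.74, 5.89 and 12.7 TPM. Every aged library lay below every young one, by a small margin between aged 1 and young 4, and aged 4 was the lowest of all. Groups separated in the lower direction for 0.575% of all tested genes in this comparison. The treated libraries 1 to 5 stood at 31.5, 25.6, 13.7, 17.8 and 12.8 TPM. Treated 1, treated 2 and treated 4 lay within the young range, and treated 3 and treated 5 within the aged range. The treated group thus overlapped both control groups.

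On the log2(TPM + 1) scale the Enho difference was −1.35 for aged minus young, 0.88 for treated minus aged and −0.47 for treated minus young. Aged minus young placed Enho 46th from the lowest among 12168 tested genes, and treated minus aged placed it 204th from the highest. These ranks restate the values that chose the gene. Leaving out 1 library at a time gave aged minus young between −1.55 (without young 4) and −1.16 (without young 5), and treated minus aged between 0.71 and 1.02. Treated minus young ranged from −0.67 without young 4 to −0.28 without young 5. The sign held in each of these fits, which reuse the values that chose the gene and so give it no separate support.

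Summed levels of cell type markers are given without a test, and those of some cell types had different ranges in the same groups. Sinusoidal endothelial markers overlapped between groups, at 73.95 to 247 TPM (young), 115 to 269 (aged) and 133 to 306 (treated). So did stellate and fibroblast markers, at 134 to 220, 145 to 241 and 204 to 228 TPM in that order. Erythroid markers overlapped too, at 1183 to 3479, 1449 to 2862 and 1171 to 3046 TPM. Summed hepatocyte markers ran from 157930 to 197544 TPM (young), 121030 to 171932 (aged) and 128922 to 162451 (treated). The 12 B and plasma cell markers summed to 181 to 432 TPM (young), 808 to 5432 (aged) and 542 to 5527 (treated). The young sums came mostly from Sdc1 (102 to 297 TPM) and Xbp1 (52.8 to 110), whose ranges overlapped those of the other groups. Igkc held 6.11 to 16.6 TPM (young), 264 to 3654 (aged) and 114 to 2852 (treated). The 12 monocyte and macrophage markers summed to 56.2 to 173 (young), 239 to 709 (aged) and 184 to 994 (treated). The 56.2 was that of young 4, and the other young libraries held 148 to 173 TPM. Young 4 was also the lowest of all libraries for sinusoidal endothelial (73.95 TPM) and Kupffer cell (223 TPM) markers. Set against 100000 TPM of hepatocyte markers, Enho stood at 15.8 ± 5.80 (young), 6.84 ± 2.59 (aged) and 13.5 ± 4.43 (treated), as mean and SD of 5. This scale rests mostly on Alb and Apoa2, which averaged 76170 and 41977 TPM in young livers. The order of the 3 group means was the same on that scale, but the aged range (3.85 to 10.5) overlapped the young range (8.48 to 23.6). The young and treated medians were close, at 13.8 and 13.2. Enho was chosen for that order, so its return here is no separate support. Fewer cells of a type and less RNA per cell cannot be told apart in these bulk samples, and the part of cell composition in the Enho levels was not tested.

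**Figure D1:**
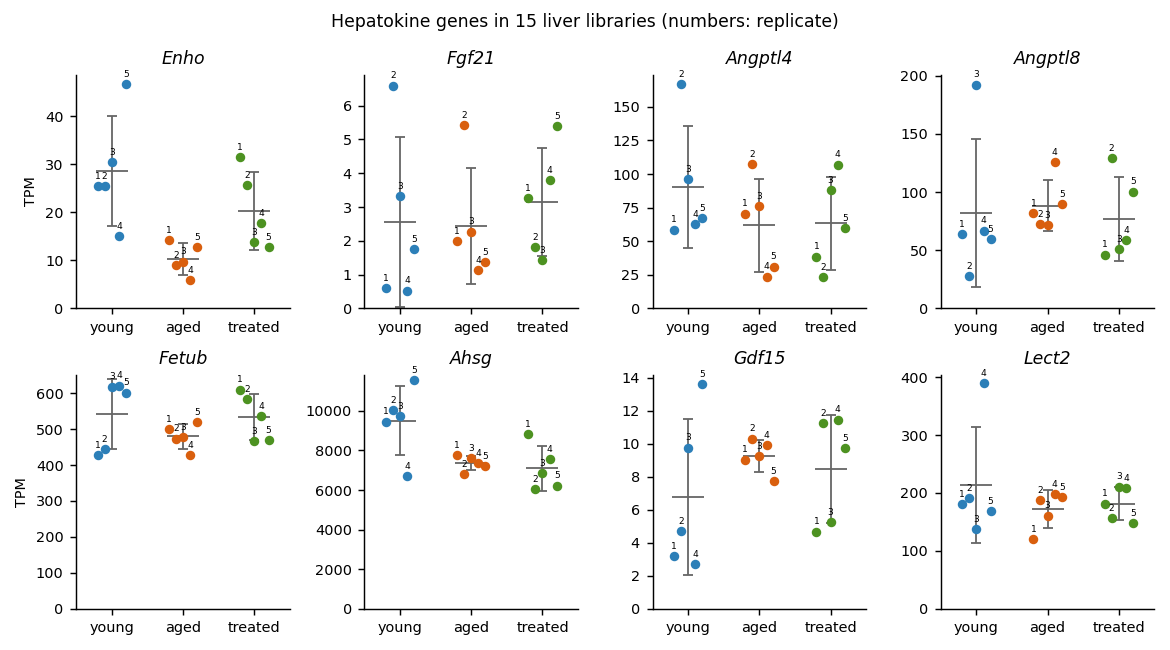
TPM of the 8 hepatokine genes (vertical axes, starting at 0) in young, aged and treated livers. Each point is 1 library with its replicate number, and bars give the mean and SD of 5 libraries. Enho has every aged library below every young one, and the highest value of each gene lies in a young library.

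None of the other 7 genes passed the test in any of the 3 comparisons. The test was limma on log2(TPM + 1) over 12168 genes, with Benjamini-Hochberg adjusted p under 0.05 as the threshold. Over all tested genes it called 1.08% for aged against young, 0.00822% for treated against aged and 2.91% for treated against young. At an unadjusted limma p under 0.05, 1 of the 7 genes passed for aged against young (8.72% of all genes), none for treated against aged (4.41%) and 1 for treated against young (17.8%). In both cases this was Ahsg.

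Ahsg, which encodes fetuin-A, an inhibitor of soft-tissue calcification and of the insulin receptor kinase, was the most abundant of the 8 genes. It was 15th by mean level over all gene rows. The young libraries 1 to 5 held 9456, 10036, 9741, 6720 and 11543 TPM. The aged libraries held 7752, 6823, 7607, 7376 and 7220 TPM, and the treated libraries 8820, 6064, 6841, 7544 and 6228. The young libraries other than young 4 lay above every aged and treated library, while young 4 lay below every aged library. The log2 difference was −0.35 for aged against young (SE 0.15, limma adjusted p = 0.483) and −0.41 for treated against young (SE 0.15, adjusted p = 0.151). Without young 4 the treated livers were lower by the same test (log2 change −0.53, adjusted p = 0.0202), and so they were with libraries weighted by quality (−0.54, adjusted p = 0.00656). Those 2 settings also called 9.78% and 12.6% of all tested genes, against 2.91% in the main fit. Aged against young did not pass in any alternative, where the adjusted p ranged from 0.0647 to 0.761. The summed hepatocyte markers given above also had lower, overlapping ranges in aged and treated livers. Young 5 was the highest of the 15 libraries both for them and for Ahsg. In young 4, the lowest young library for Ahsg, they summed to 177449 TPM, above every aged and treated library. Their part in the Ahsg levels was not tested.

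Fetub, which encodes fetuin-B, an inhibitor of the egg protease ovastacin in mice, had the lowest coefficient of variation of the 8 genes over the 15 libraries, 13.8%. Its young libraries 1 to 5 held 427, 444, 618, 621 and 602 TPM. The aged libraries held 500, 474, 478, 428 and 520 TPM, and the treated libraries 610, 583, 467, 536 and 470. The 3 groups overlapped, with coefficients of variation of 18.1%, 7.18% and 12.1%. Its log2 difference was −0.16 for aged against young (95% interval −0.46 to 0.14, limma adjusted p = 0.958) and 0.15 for treated against aged (−0.15 to 0.45, adjusted p = 0.925).

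Angptl4 and Angptl8 act on the same enzyme, lipoprotein lipase, which frees fatty acids from circulating triglyceride. Angptl4 encodes an inhibitor of that enzyme that is raised by fasting. Its young libraries 1 to 5 held 58.6, 167, 96.5, 62.9 and 67.1 TPM, its aged libraries 70.5, 107, 76.4, 23.7 and 31.1, and its treated libraries 38.5, 23.3, 88.1, 107 and 59.6. The ranges overlapped, and the 3 lowest libraries were aged 4, aged 5 and treated 2. On the log2 scale the difference was −0.63 for aged against young (SE 0.47, limma adjusted p = 0.889) and 0.05 for treated against aged (SE 0.47, adjusted p = 0.994). Adipocytes are another source of Angptl4. Of 6 adipocyte markers Adipoq, Plin1, Lep, Retn and Cfd reached at most 1.4, 0.62, 0.03, 1.01 and 5.63 TPM in any library, and Car3 stood at 477 to 2497 TPM. The part of adipocytes in the Angptl4 levels was not tested.

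Angptl8 encodes a secreted regulator of that enzyme that rises with feeding. Its young libraries 1 to 5 held 64.0, 27.5, 192, 66.9 and 59.9 TPM, its aged libraries 82.0, 72.6, 71.8, 126 and 89.4, and its treated libraries 46.3, 129, 51.2, 58.9 and 100.3. Young 2 and young 3 were the lowest and the highest of all 15 libraries, and the aged libraries lay between them. Its log2 difference was 0.36 for aged against young (95% interval −0.51 to 1.22, limma adjusted p = 1) and −0.28 for treated against aged (−1.14 to 0.58, adjusted p = 0.943). Angptl8 lies within the gene Dock6, on the opposite strand, in GENCODE M21. They share no exon bases, and Dock6 stood at 5.06 to 19.1 TPM in the 15 libraries. Whether the libraries keep strand is not given in the sources used here, so reads of an unspliced Dock6 transcript could not be told from those of Angptl8.

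Fgf21 encodes a hormone that signals through the co-receptor beta-Klotho and FGF receptors. It was the least abundant of the 8 genes. The young libraries 1 to 5 held 0.6, 6.59, 3.32, 0.53 and 1.75 TPM, the aged libraries 2, 5.42, 2.27, 1.13 and 1.38, and the treated libraries 3.26, 1.82, 1.44, 3.8 and 5.39. The highest young library held 12.4-fold the level of the lowest, and the aged and treated ranges lay inside the young one. On the log2 scale the difference was 0.11 for aged against young (95% interval −0.80 to 1.01, limma adjusted p = 1) and 0.30 for treated against aged (−0.61 to 1.21, adjusted p = 0.941). The sign of the first rested on single libraries, since it was −0.15 without aged 2, −0.13 without young 4 and −0.11 without young 1.

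Gdf15 encodes a stress cytokine that lowers food intake through the hindbrain receptor GFRAL. Its young libraries 1 to 5 held 3.2, 4.71, 9.76, 2.69 and 13.6 TPM, its aged libraries 9.03, 10.3, 9.24, 9.93 and 7.74, and its treated libraries 4.67, 11.3, 5.26, 11.5 and 9.72. The aged libraries lay close together, inside the young range, with a coefficient of variation of 10.7% against 69.5% in young and 38.7% in treated livers. The log2 difference was 0.60 for aged against young (95% interval −0.12 to 1.32, limma adjusted p = 0.715) and −0.19 for treated against aged (−0.91 to 0.53, adjusted p = 0.958).

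Lect2 encodes a hepatocyte chemotactic factor that binds the endothelial receptor TIE1 and is a target of Wnt signalling in mouse liver. Its young libraries 1 to 5 held 181, 192, 138, 390 and 169 TPM, its aged libraries 121, 188, 161, 198 and 193, and its treated libraries 182, 156, 211, 208 and 149. Young 4 stood apart and the other 14 libraries lay between 121 and 211 TPM. The log2 difference was −0.23 for aged against young (SE 0.23, limma adjusted p = 0.976) and 0.01 without young 4. For treated against aged it was 0.08 (SE 0.23, adjusted p = 0.979).

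For treated against young, the genes other than Enho and Ahsg had limma adjusted p from 0.550 (Angptl4) to 0.9755 (Fetub). Angptl4 had a log2 difference of −0.58, Lect2 of −0.15 and Fetub of −0.01. Fgf21 had a log2 difference of 0.41, Gdf15 of 0.41 and Angptl8 of 0.08. Without young 4 those of Lect2 and Fetub were 0.09 and 0.04.

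**Figure D2:**
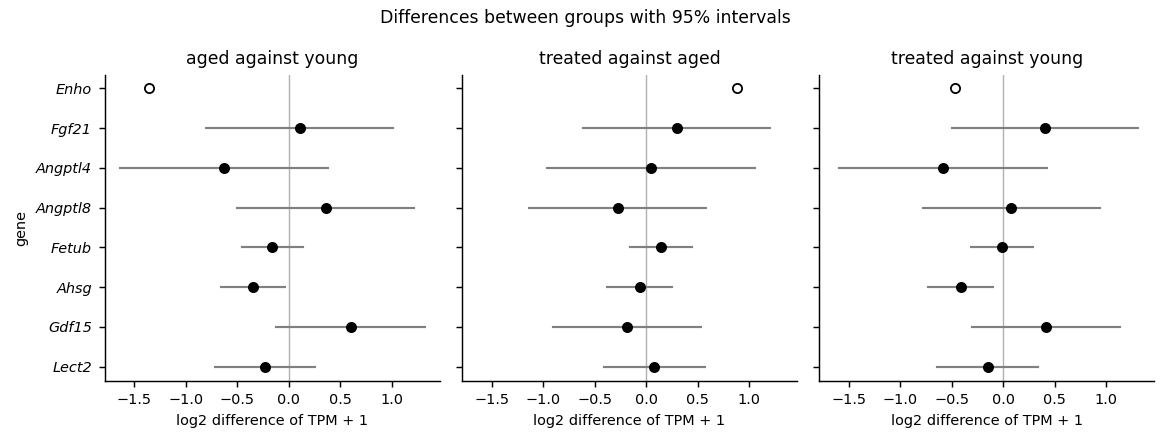
Differences of mean log2(TPM + 1) between groups (horizontal axes) for the 8 genes, with 95% limma intervals for the 7 genes that were tested. Enho, an open circle, was chosen for these values and has no interval. The tested intervals span 0 except those of Ahsg for aged against young and treated against young, and they are not adjusted for the number of genes.

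The spread of most of these genes was wider in young than in aged livers, as it was for most genes. The coefficient of variation was lower in aged than in young livers for 6 of the 7 genes other than Enho, Angptl4 being the exception, against 72.1% of all tested genes. The highest of the 15 libraries was a young one for 7 of these 7 genes, against 41.0% of all tested genes. It was young for Enho too, which follows from how Enho was chosen. The 8 maxima came from young 2 (Fgf21 and Angptl4), young 3 (Angptl8), young 4 (Fetub and Lect2) and young 5 (Enho, Ahsg and Gdf15). The lowest library was young for 4 of the 7 genes, against 69.3% of all tested genes.

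Ordered by mean TPM over the 15 libraries, the genes ran from Ahsg at 7985 ± 1586 through Fetub at 518 ± 71.4, Lect2 at 189 ± 61.4, Angptl8 at 82.5 ± 41.1, Angptl4 at 71.8 ± 38.1, Enho at 19.7 ± 10.9 and Gdf15 at 8.17 ± 3.29 to Fgf21 at 2.71 ± 1.87 (SD, n = 15 libraries of 3 groups). Ahsg exceeded Fetub and Fetub exceeded Lect2 with no overlap of their ranges. Angptl8 and Angptl4 did not differ beyond their spread, with Angptl8 the higher in 9 of 15 libraries. Enho lay below Angptl4 in 14 and above Gdf15 in 13 of 15 libraries.

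Covariation within groups, a measure that the choice of Enho did not use, was computed for the 28 pairs of genes after group means were subtracted. No pair passed after adjustment over the 28 pairs, and 3 had an unadjusted permutation p under 0.05. The pair with the smallest p was Fgf21 with Angptl4, both PPARa targets, with Pearson's r = 0.65 (permutation p = 0.00849, adjusted p = 0.238) and Spearman's rho = 0.60 (permutation p = 0.0232, adjusted p = 0.292) over 15 libraries. Within single groups of 5 libraries r was 0.95 (young), 0.88 (aged) and 0.21 (treated). Without young 2 and aged 2, the libraries farthest from the median of Fgf21, r was 0.43, so the relation leaned on them. Without treated 3 alone r was 0.79 and passed (permutation test, adjusted p = 0.0042).

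Enho covaried with Ahsg at r = 0.67 (permutation p = 0.0201, adjusted p = 0.281) with rho = 0.59 (permutation p = 0.0417, adjusted p = 0.292), and with Lect2 at r = −0.58 (permutation p = 0.0497, adjusted p = 0.464) with rho = −0.58 (permutation p = 0.0399, adjusted p = 0.292). Without young 5 and treated 1, the libraries farthest from the median of Enho, r was 0.43 for Ahsg and −0.66 for Lect2. Without young 4, which had the highest Lect2, r was 0.53 for Ahsg and −0.35 for Lect2, and with quantile normalization that for Lect2 was −0.29. Enho with Fetub had r = 0.48 (permutation p = 0.114, adjusted p = 0.531) with rho = 0.40 (permutation p = 0.186, adjusted p = 0.574), or r = 0.30 without the same 2 libraries. Young 4 moved this pair most, and without it r was 0.81 (permutation test, adjusted p = 0.00588). Within the young, aged and treated groups alone its r was 0.07, 0.95 and 0.98. In the same order, r of Enho was 0.94, 0.30 and 0.51 with Ahsg, and −0.80, −0.64 and −0.09 with Lect2. Enho with Gdf15 had r = 0.36 (permutation p = 0.271, adjusted p = 0.762), or 0.89, −0.67 and −0.20 by group. Angptl4 and Angptl8 ran opposite to each other, at r = −0.46 (permutation p = 0.0743, adjusted p = 0.520) with rho = −0.61 (permutation p = 0.0239, adjusted p = 0.292), and r was −0.24 without aged 4 and treated 2. Single libraries moved it as well, to −0.31 without young 2 and −0.72 without young 3. Enho showed little relation to Fgf21 (r = 0.13), Angptl4 (r = −0.13) or Angptl8 (r = −0.05), with permutation p of 0.702, 0.652 and 0.895 and adjusted p of 0.882, 0.870 and 0.963.

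**Figure D3:**
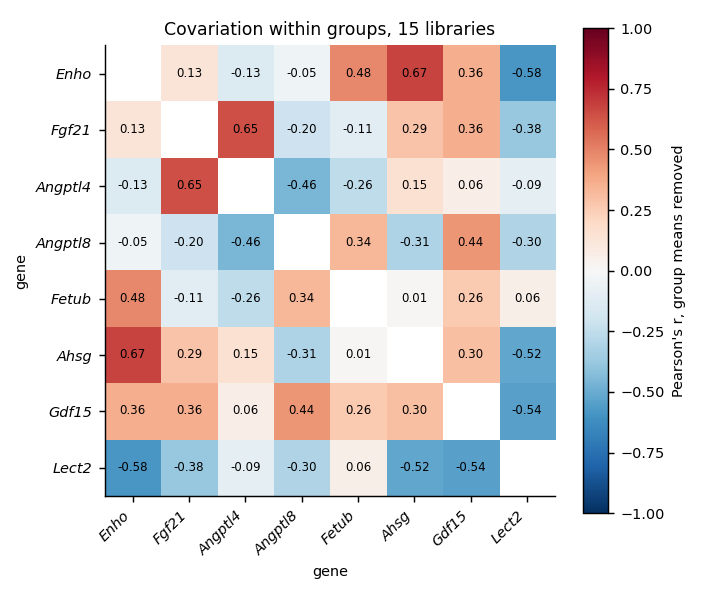
Pearson's r between the 8 genes over 15 libraries, on log2(TPM + 1) with group means subtracted (both axes list the genes, colour and printed value give r). Fgf21 with Angptl4 and Enho with Ahsg are the highest at 0.65 and 0.67, and Enho with Lect2 is the lowest at −0.58.

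The genes whose pattern was most like that of Enho were sought among 6807 other named genes that averaged 5 TPM or more, and are given as a description. Over the 15 libraries Selenbp2, which encodes a selenium-binding protein, was closest (r = 0.85), followed by Dusp6, an ERK phosphatase gene (0.76), Cdh1, which encodes E-cadherin (0.75), Rogdi (0.72) and Igfbp2, an IGF binding protein gene (0.72). Selenbp2 averaged 22.3 ± 9.43 TPM (young), 10.3 ± 1.72 (aged) and 15.1 ± 10.2 (treated), with SD over 5 libraries each. Its treated mean leaned on treated 1, at 32.6 TPM against 7.24 to 14.4 in the other treated libraries. Cdh1 likewise stood at 11.4 TPM in treated 1 and at 0.9 to 1.27 in the others. Treated 1 was also the highest treated library for Enho. Selenbp2 has a near-identical paralogue, Selenbp1, so its reads may be split between the 2 genes. Igfbp2 averaged 569 ± 163, 239 ± 13.2 and 283 ± 92.2 TPM in the same order.

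With group means subtracted, the sigma-2 receptor gene Tmem97 was most like Enho (r = 0.89), followed by Haus4, which encodes a subunit of a spindle complex (0.83), Selenbp2 (0.82), the RNA helicase gene Mov10 (0.80) and Smad6, an inhibitor of BMP signalling (0.80). Selenbp2 was the gene named by both measures. Running most opposite to Enho were Chpt1, which encodes a choline phosphotransferase (r = −0.93), the glutathione transferase gene Mgst1 (−0.90) and Hint3 (−0.88). Tmem97 averaged 81.8 ± 20.7, 76.7 ± 13.5 and 76.9 ± 22.5 TPM in young, aged and treated livers, so its group means lay closer together than those of Enho.

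**Figure D4:**
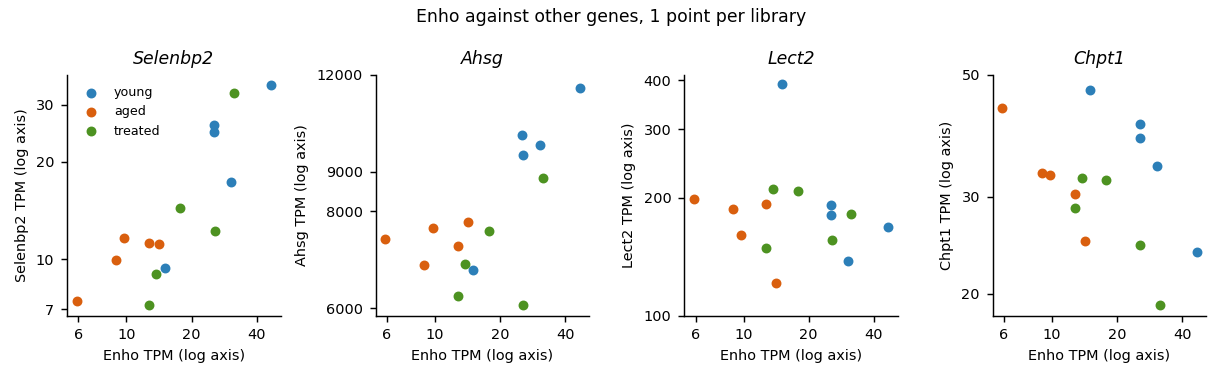
TPM of Selenbp2, Ahsg, Lect2 and Chpt1 (vertical log axes) against TPM of Enho (horizontal log axes), 1 point per library coloured by group. Selenbp2 rises with Enho over the 15 libraries (r = 0.85), while Chpt1 runs opposite to it within groups (r = −0.93).

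In GENCODE M21 Enho shares 15 exon bases with Dnaic1, a dynein gene on the opposite strand, which stood at 0.15 to 2.42 TPM. The antisense gene Gm12406 also overlaps Enho, with no shared exon bases, and reached at most 0.3 TPM. Ahsg shares 62 exon bases with the antisense gene Gm30505, which reached at most 0.92 TPM. No other gene model of that annotation overlapped the 8 genes, which lie on chromosomes 4 (Enho), 7 (Fgf21), 17 (Angptl4), 9 (Angptl8), 16 (Fetub and Ahsg), 8 (Gdf15) and 13 (Lect2).

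Promoters, from 250 bases before to 50 after a start site, were at hand from RefSeq (GRCm38.p6) for 6 of the 8 genes, and not for Enho and Angptl4. The motif TGATGNAA, the core bound by ATF4 with CHOP, was present on either strand in 3.97% of 32851 promoters, and among the 8 promoters of these 6 genes in those of Fgf21 and Angptl8. The E-box CACGTG was present in 7.15% of all promoters and in those of Fgf21 and of 1 of 2 Gdf15 start sites. The D-box TTANGTAA was present in 2.32% of all promoters and in none of these 8. The promoters of Fgf21 (chr7:45615441-45615740, minus strand) and Angptl8 (chr9:21835260-21835559, plus strand) are shown because they share the ATF4 with CHOP motif. Capitals mark that motif and, in Fgf21, the E-box. A match describes the letters and is not a site.
Fgf21: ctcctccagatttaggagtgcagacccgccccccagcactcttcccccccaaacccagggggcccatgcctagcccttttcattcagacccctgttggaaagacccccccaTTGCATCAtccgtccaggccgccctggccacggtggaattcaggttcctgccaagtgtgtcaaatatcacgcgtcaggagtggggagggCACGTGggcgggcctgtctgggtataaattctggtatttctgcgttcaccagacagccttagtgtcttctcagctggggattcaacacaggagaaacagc
Angptl8: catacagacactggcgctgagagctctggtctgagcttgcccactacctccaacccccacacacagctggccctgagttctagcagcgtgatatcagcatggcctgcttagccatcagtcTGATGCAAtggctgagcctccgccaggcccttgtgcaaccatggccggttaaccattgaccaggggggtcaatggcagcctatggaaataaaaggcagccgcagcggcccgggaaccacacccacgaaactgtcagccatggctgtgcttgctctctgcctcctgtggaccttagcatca

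Genes around the hepatokines were described as 7 lists by the same fit. Receptors and partners of the 8 proteins came first, and none of the 16 tested members passed in any comparison. Lpl, which encodes the lipase that Angptl4 inhibits, stood at 7.86 ± 2.19 TPM (young), 4.94 ± 1.90 (aged) and 10.2 ± 6.58 (treated), with SD over 5 libraries each. Its log2 difference was −0.60 for aged against young and 0.80 for treated against aged (limma adjusted p = 0.681 and 0.925). Insr, the insulin receptor gene, stood at 11.1 ± 3.44, 8.18 ± 1.74 and 8.07 ± 1.35 TPM, and the hepatic lipase gene Lipc at 268 ± 88.0, 244 ± 48.0 and 202 ± 35.7 TPM. Gfral and Ret, which form the GDF15 receptor of the hindbrain, averaged under 1 TPM and were not tested. Tek, a receptor gene related to Tie1, passed for treated against young without young 4 (log2 change −0.79, adjusted p = 0.0498) and with library weights (0.0391).

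Of 29 tested secreted liver factors other than the 8 genes, 2 rose and 1 fell in aged against young livers, beside 0.929% and 0.156% of all genes. Hamp, the gene of the iron hormone hepcidin, rose (log2 change 1.55 with SE 0.28, limma adjusted p = 0.00847). The protease inhibitor gene Serpinb1a rose too (2.46, adjusted p = 0.0155), and Igfbp2 fell (−1.205, adjusted p = 0.00858). For Serpinb1a the adjusted p was 0.0525 without young 3. None of these factors passed for treated against aged, where Fgl1, which encodes a liver-secreted fibrinogen-like protein, had a log2 difference of 0.93 (adjusted p = 0.925).

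For treated against young livers 1 of these factors rose and 3 fell, beside 2.18% and 0.731% of all genes. Hamp rose (log2 change 1.40, limma adjusted p = 0.0114). Igfbp2 (−1.03, adjusted p = 0.0167) and Rbp4, the gene of a retinol carrier of plasma (−0.62, adjusted p = 0.0118), fell. The Igfbp2 call ended with no filter (adjusted p = 0.0569) and with the fit of 2 groups only (0.0515). Angptl6, a relative of Angptl4 and Angptl8, fell as well (−0.94, adjusted p = 0.0305), from 19.1 ± 6.63 TPM in young to 9.20 ± 1.71 in treated livers. Leaving out young 1, young 2, young 3, young 5, treated 2, treated 3 or treated 5 each ended the Angptl6 call (adjusted p 0.0548 to 0.0924), as did the replicate block (0.0693) and no filter (0.0834).

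Among 26 transcription factor genes upstream of hepatokines, in 27 rows because Ddit3 has 2, none passed in any comparison. The median log2 difference for treated against aged was 0.01, against −0.0005 over all genes. Cebpb, a stress-responsive factor gene, stood at 28.2 ± 18.2, 14.5 ± 4.34 and 20.4 ± 10.9 TPM in the young, aged and treated groups (limma adjusted p = 0.626 for aged against young). Creb3l3, which encodes a membrane-bound activator of Fgf21 in mice, stood at 165 ± 68.3, 110 ± 25.5 and 83.7 ± 29.9 TPM (adjusted p = 0.163 for treated against young). Creb3l3 was lower in treated than in young livers by the same test without young 4 (log2 change −1.25, adjusted p = 0.00563), with library weights (adjusted p = 0.00557) and with median-ratio scaling (adjusted p = 0.0451). Of 13 tested clock and clock output genes none passed either, and Per1 had the smallest adjusted p among them (0.110 for treated against young, log2 difference −1.22). Without treated 3 it passed (−1.62, adjusted p = 0.00878).

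Among 25 PPARa targets other than Fgf21 and Angptl4, Cd36, a fatty acid transporter gene, rose in aged against young livers (log2 change 1.31, limma adjusted p = 0.00101) and in treated against young livers (1.21, adjusted p = 0.00155). The fatty acid hydroxylase genes Cyp4a10 and Cyp4a14 fell in treated against young livers (−1.88 and −2.58, adjusted p = 0.00169 and 0.0314). Leaving out young 1, young 2, young 3, young 5, treated 2 or treated 5 each ended the Cyp4a14 call (adjusted p 0.0625 to 0.0897), as did no filter (0.0600) and the fit of 2 groups only (0.101). Cyp4a10 and Cyp4a14 belong to a family of close paralogues, so reads may be split between them. Without young 4, 13 of the 25 targets were called for treated against young, against 3 with it. Calls over all genes rose likewise, from 2.91% to 9.78%.

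For treated against aged none of the 25 targets passed, and 25 of 25 had lower means, against 50% of all tested genes (median log2 difference −0.38, against −0.0005 over all genes). Acaa1b, which encodes a peroxisomal thiolase, stood at 594 ± 169 TPM in aged and 290.5 ± 123 in treated livers (log2 difference −1.08, limma adjusted p = 0.925). Fgf21 and Angptl4, with log2 differences of 0.30 and 0.05 in that comparison, had slightly higher means in treated livers.

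Of 16 tested targets of the integrated stress response none passed in any comparison. Trib3, a pseudokinase gene induced by that response, stood at 3.18 ± 1.10, 1.52 ± 0.844 and 1.27 ± 0.468 TPM in the young, aged and treated groups (limma adjusted p = 0.230 for aged against young and 0.0693 for treated against young). Trib3 passed in the latter comparison without young 4 (log2 change −0.96, adjusted p = 0.0328), without aged 5 (0.0456), with the replicate block (0.0392) and with quantile normalization, median-ratio scaling or library weights (0.0173 to 0.0330). Of 20 fat synthesis genes of fed liver, the desaturase gene Scd1 rose in aged against young livers (log2 change 1.68, adjusted p = 0.0381), and Pnpla3, a lipase gene of lipid droplets, rose in treated against young livers (3.02, adjusted p = 0.0138). Both had higher means in the other of these comparisons without passing. The log2 difference was 2.42 for Pnpla3 in aged against young (limma adjusted p = 0.0765) and 1.25 for Scd1 in treated against young livers (0.0836). Each of these passed in 3 of 25 alternatives. Leaving out any of young 2, young 3, young 4, aged 1, aged 2, aged 3, aged 4, treated 2 or treated 5 ended the Scd1 call (adjusted p 0.0507 to 0.111), as did the replicate block (0.137), no filter, quantile normalization and the fit of 2 groups only (0.0542 to 0.110).

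**Figure D5:**
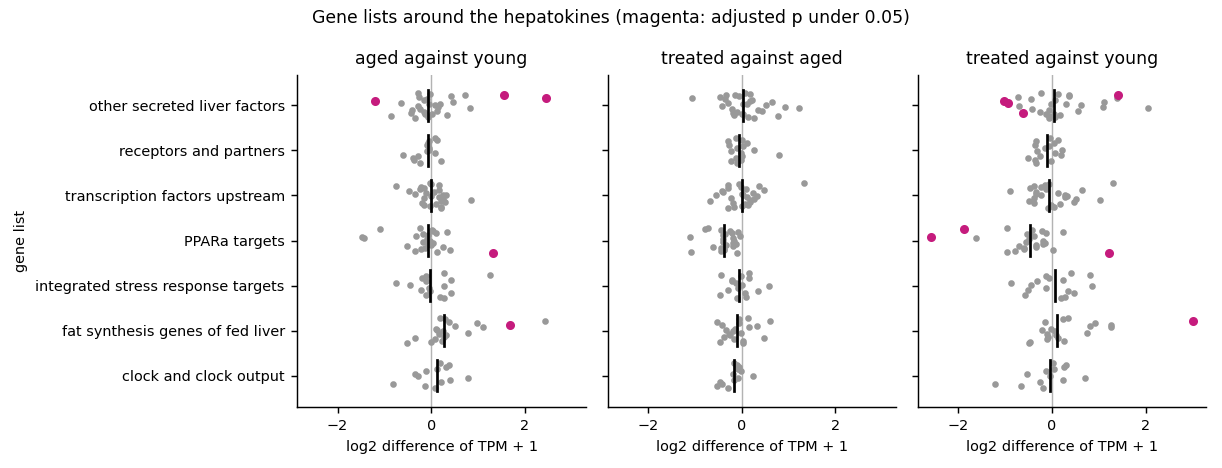
Differences of mean log2(TPM + 1) (horizontal axes) for the tested genes of 7 lists (vertical axis), 1 point per gene, with the list median as a black line and genes with a limma adjusted p under 0.05 in magenta. No list has a called gene for treated against aged, and PPARa targets lie to the left of 0 in that panel.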

How the data were processed

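RNA-seq of mouse liver gave 15 libraries in 3 groups of 5. The deposited table gives TPM per gene for each library, to 2 decimals. Per the submitters' processing notes, the tools were fastp, HISAT and RSEM and the genome build GRCm39, with versions not given in the sources used here. TPM keeps no read number, so depth and counting error are unknown. The 3 group-mean columns were not used. The 12168 genes that averaged 1 TPM or more were tested on log2(TPM + 1) with limma 3.58.1 in R 4.3.3, over all 15 libraries, with Benjamini-Hochberg adjustment. A fold change on this scale understates that of low genes such as Fgf21. The procedure was tested on simulated data. Covariation used 100000 permutations within groups, two-sided.

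The members and lists were chosen with earlier results of these data known. All 8 members are named. In each list the called genes and the 2 with the smallest p in each comparison could be named. The 5 genes most like Enho by each measure, and the 3 most opposite, averaged 5 TPM or more. Alternatives were other pseudocounts, filters and scalings, library weights, 2 groups at a time, a replicate block and leaving out libraries. One set of 3 libraries was added after seeing the data. Some items withheld for evaluation are not reported here.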

Additional observations from a re-analysis of the deposited data

Results flagged for a closer look

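In 24 sets of 5 libraries (8 genes in 3 groups), the gap of the highest or lowest library to its neighbour was set against the range of the group, with Dixon's critical value of 0.71. Chance passes about 1 in 20 such sets, and 3 passed here. Fgf21 in aged 2 stood at 5.42 TPM, above the other aged libraries at 1.13 to 2.27. Angptl8 in young 3 stood at 192.31 TPM, above the other young libraries at 27.5 to 66.9. Lect2 in young 4 stood at 390.21 TPM, above the other young libraries at 138 to 192.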

How the results depend on the processing

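The sign of the Enho difference held in every alternative run. It ran from −1.64 to −1.10 for aged minus young, 0.69 to 1.02 for treated minus aged and −0.84 to −0.28 for treated minus young. These runs reuse the values that chose Enho, so the held sign is a description and not a test. For the 7 other hepatokine genes none was called for aged against young or treated against aged in any alternative. For treated against young, 0 to 1 was called when 1 library was left out, 1 with library weights, and 1 when young 4, aged 5 and treated 1 were all left out, a set chosen after seeing the data because an earlier analysis left it out. It was Ahsg each time, and library weights and that set called 12.6% and 11.99% of all genes. Leaving out 1 library gave 0 to 1 called pairs in the covariation.

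Signs of uncalled differences turned in some alternatives. For Fgf21, aged against young, they were −0.0417 with quantile normalization and −0.0262 without the 3 libraries, and −0.15 to 0.45 with 1 library left out. For Angptl4, treated against aged, they were −0.21 with library weights, −0.0162 without the 3 libraries and −0.24 to 0.35 with 1 left out. For Lect2 they ranged over −0.36 to 0.008 (aged against young), −0.0407 to 0.15 (treated against aged) and −0.28 to 0.0885 (treated against young), the last being 0.0046 with weights and 0.0836 without the 3 libraries. For treated against young, Angptl8 had −0.022 with median-ratio scaling and −0.24 to 0.45 with 1 left out, and Fetub had 0.10 with weights and −0.0944 to 0.0402 with 1 left out.

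Calls in the lists moved as follows, and the cause was not tested. For aged against young, 2 of 25 PPARa targets were called with 2 groups only and without the 3 libraries, beside 1.225% and 1.56% of all genes. Fat synthesis genes gave 2 of 20 with pseudocount 0.1 (1.53% of all genes) and without the 3 libraries. They gave 0 with no filter, quantile normalization or the replicate block. With 1 library left out the ranges were 2 to 3 secreted factors, 1 to 2 PPARa targets and 0 to 2 fat synthesis genes. The share over all genes in those fits was 0.648% to 1.35%. For treated against young, library weights called 8 secreted factors, 2 receptors, 3 transcription factors, 15 PPARa targets, 2 stress targets and 3 fat synthesis genes (12.6% of all genes). Leaving out the 3 libraries called 7, 1, 3, 13 and 2 of the first 5 lists (11.99% of all genes). No filter left 2 secreted factors, beside 0.69% of all genes. Quantile normalization called 1 transcription factor and 1 stress target (4.72% of all genes). Median-ratio scaling called 1, 1, 9 PPARa targets and 2 fat synthesis genes (5.4% of all genes). With 1 library left out the ranges were 3 to 6, 0 to 2, 0 to 3, 2 to 13, 0 to 1 and 1 to 2 in the order given for library weights, and 0 to 1 clock genes. The share over all genes in those fits was 1.51% to 9.78%.

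With group means subtracted, same-numbered libraries correlated across genes at −0.249 to 0.309, with 4 of 15 pairs over 0.1. The same number was the best partner in 4 of 15 cases. The labels do not say whether the numbers pair libraries, and values this low cannot exclude a weak pairing. The replicate block called 116, 1 and 373 genes, against 132, 1 and 354 without it, and 0 of the 7 hepatokine genes. In treated against young it called 1 stress target (Trib3) and 2 fat synthesis genes, and it ended the calls of Angptl6 there and of Scd1 for aged against young. Counts over all genes for treated against young ranged most, being 1192 without young 4, 1538 with weights, 654 with median-ratio scaling, 574 with quantile normalization and 188 with no filter. Fgf21 fell under the 5 TPM filter and has no value there. Depth limits could not be given for TPM.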
